A study of Mus musculus with 6 samples.

Results

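Integrins, the laminin chains, the nidogens and nephronectin are the receptors and ligands through which lung cells hold on to the basement membrane. They were taken from the deposited table by symbol, and 40 of its 55359 genes matched: 18 integrin alpha chains, 8 integrin beta chains, 5 laminin alpha, 3 laminin beta and 3 laminin gamma chains, 2 nidogens and nephronectin. The 6 libraries hold poly(A) RNA of whole lung, each from a C57 embryo of stage E18.5, shortly before birth, of which 3 carried the genotype label WT and 3 the label Prmt5 knockdown. Prmt5 encodes an arginine methyltransferase, and the series text describes a knockout in the lung mesenchyme driven through Dermo1, also called Twist2. The housing note, the same for all 6 samples, speaks of pregnant dams with the mesenchymal knockdown, and neither litters nor a Cre label of the embryos is given. Whole lungs also hold epithelium, endothelium and blood cells beside mesenchyme, and in such RNA fewer cells of a type and less RNA per cell cannot be told apart. Whether the samples are separate litters is not stated, so p-values reflect how much these samples vary, part of which may be technical.

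Prmt5 itself was measured first, as a check of the labels. It stood at 11.7, 11.8 and 12.2 FPKM in the wild type lungs, and 10.1, 11.8 and 12 FPKM in those labelled knockdown, with a log2 fold change of -0.084 (95% interval -0.29 to 0.13, edgeR adjusted p = 0.682). FPKM is the read count scaled by exon length and library size, so it allows levels of different genes to be set side by side. No drop of the targeted gene passed the test, the counts do not resolve single exons, and the groups are therefore named by their labels. Library totals lay between 14383415 and 19262837 counts. Of the 10 markers of alveolar type 1 cells, the flat epithelium of gas exchange, 7 were lower at an unadjusted p under 0.05, with a summed level of 6403 to 7316 CPM for wild type, 4254 to 5495 CPM for the knockdown label. For endothelium it was 10 of 10 (2847 to 3255 CPM for wild type, 1936 to 2431 CPM for the knockdown label) and for alveolar fibroblasts 5 of 10 (6332 to 7257 CPM for wild type, 5160.4 to 5628 CPM for the knockdown label). Of the pericyte markers 4 of 10 were lower (1718 to 1774 CPM for wild type, 1535 to 1591 CPM for the knockdown label), and of those of alveolar type 2 cells, the surfactant-making epithelium, 0 of 10 (15421 to 19475 CPM for wild type, 15854 to 20096 CPM for the knockdown label). The 10 heart muscle markers summed to 364 to 2735 CPM for wild type, 3025 to 10201 CPM for the knockdown label, with 7 higher at an unadjusted p under 0.05. None of these 6 lists had a gene past the adjusted threshold or a marker at 0 in any library. They were 6 of 13 marker lists, to which 2 were added later. Myofibroblast and smooth muscle markers had 2 of 10 lower and 1 higher (1261 to 1530 against 1027 to 1586 CPM, wild type first). Schwann cell markers had 1 of 10 lower and 2 higher (557 to 588 against 469 to 540 CPM). Mesothelium had 0 of 10 lower and 2 higher, and erythroid cells 0 of 8 either way. Over all genes tested 8.52% were lower and 8.48% higher at that unadjusted p. The part of these cell types in the results below was not tested. Heart muscle level was also used as a covariate, but its sums did not overlap between groups, so that fit cannot separate it from the label.

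Each integrin is a pair of 1 alpha and 1 beta chain that spans the cell membrane and couples matrix outside to the actin or keratin skeleton inside. Laminins are cross-shaped trimers of an alpha, a beta and a gamma chain that form the first sheet of a basement membrane, and nidogens bind the gamma chain and link that sheet to collagen IV. Nephronectin is a matrix protein whose known receptor is integrin alpha8 beta1, a pair best studied in the outgrowth of the kidney. In the lung these proteins hold the thin epithelium and the capillary together across a shared basement membrane, and some integrins with an alphaV chain release active TGF-beta from its latent form.

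As a group, many of these transcripts had lower means in the knockdown-labelled lungs, but none passed a Benjamini-Hochberg adjusted p of 0.05 over all genes in edgeR, the main test. Of the 40 members 39 had enough counts for the test, and Itgad alone had not. By edgeR's quasi-likelihood test 0 of 39 passed, where 0.0338% of the 17728 genes tested did, 0.0282% lower and 0.00564% higher, so that few genes of any kind passed. At an unadjusted p under 0.05 there were 15 lower and 2 higher members, or 38.5% and 5.13%, beside 8.52% and 8.48% of all genes tested. DESeq2 called 11 lower and 1 higher (28.2% and 2.56%, beside 2.5% and 2.05% of its genes, and 4.54% in either direction). Without the count filter edgeR called 5 of 40, all lower, beside 0.15% of genes lower and 0.249% in either direction. At an unadjusted p under 0.05 DESeq2 had 15 lower and 3 higher of 39 (beside 7.43% and 7.95% of its genes), and edgeR without the filter 15 lower and 3 higher of 40 (beside 4.85% and 6.25%). In 14 of the 39 each knockdown-labelled value was under each wild type value, and in 2 above it, in CPM, counts scaled by library size (35.9% and 5.13%, beside 12.4% and 10.8% of genes tested). The median log2 fold change of the 39 was -0.16, with 26 negative (47.1% of all genes tested were), against a median of 0.015 over all genes tested. Without heart muscle level held constant 17 members had an unadjusted p under 0.05 and with it as a covariate 11 had.

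Levels spread widely, as the plot of members by library shows. Itgb1, the beta chain that most matrix integrins share, had the highest level at 226 ± 2.96 against 196 ± 12.05 FPKM (SD, n = 3 each). Npnt, Lamc1, Nid1 and Lama5 followed in the order of the wild type means, while in the knockdown-labelled means Lamc1 was above Npnt and Lama5 above Nid1. At the other end stood Itgad, a leukocyte chain, with 1 to 5 counts per library.

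**Figure D1:**
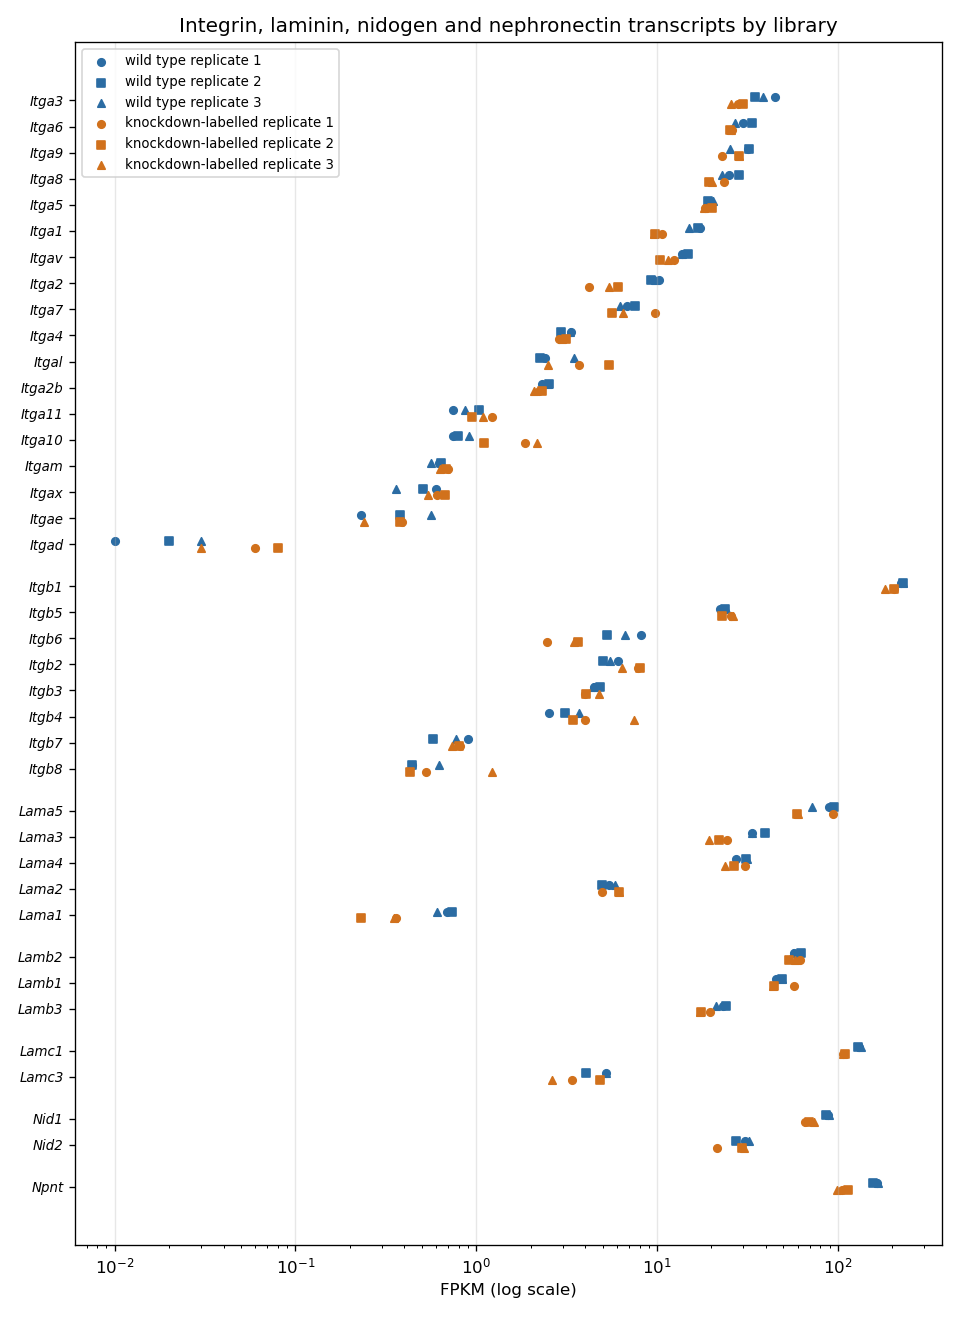
Level of 39 members in FPKM on a log axis, 1 point per library, grouped by kind of chain and ordered by the wild type mean (blue wild type, orange knockdown-labelled, shapes for replicates 1 to 3). The orange points of Npnt, Nid1, Lamc1, Lama3, Itga1, Itga2 and Itgb6 lie to the left of all blue ones, while those of Itgb2 and Itga10 lie to the right.

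In wild type nephronectin was the second most abundant member and its receptor chain Itga8 was much lower. Npnt (ENSMUSG00000040998, chromosome 3, 132587506 to 132656052, minus strand, as in the table, whose build is not named) stood at 165, 156 and 168 FPKM in the wild type lungs, and 106, 113 and 98.8 FPKM in those labelled knockdown. The groups were far apart, with the lowest wild type library well above the highest knockdown-labelled one. Means were 163 ± 6.21 against 106 ± 7.34 FPKM (SD, n = 3 each), 1.55-fold lower, and the log2 fold change was -0.63 (95% interval -0.84 to -0.42, edgeR adjusted p = 0.0804). DESeq2 did call it (DESeq2 adjusted p = 3.79e-09). Itga8, the alpha8 chain, which mesenchymal cells of the lung carry, stood at 24.9, 28.5 and 22.9 FPKM in the wild type lungs, and 23.4, 19.4 and 20.1 FPKM in those labelled knockdown. Here the groups overlapped, since knockdown-labelled replicate 1 was above wild type replicate 3. Its log2 fold change was -0.29 (95% interval -0.55 to -0.026, edgeR adjusted p = 0.265), and -0.087 once heart muscle level was a covariate. The ratio of Itga8 to Npnt in FPKM was 0.151, 0.183 and 0.136 for wild type, and 0.222, 0.171 and 0.203 for the knockdown label. Knockdown-labelled replicates 1 and 3 had a higher ratio than every wild type library and replicate 2 lay within their range. Itga8 per Itgb1, its partner chain, also overlapped between groups (0.112, 0.125 and 0.1003 for wild type, and 0.115, 0.0954 and 0.110 for the knockdown label).

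The promoter windows of this ligand and receptor are shown because the ligand and receptor differed in how far their libraries separated. They come from RefSeq on GRCm38.p6, cover 250 bases before to 50 after the outermost listed start, and are on that build only, while positions from the count table are as deposited. They are written 5′ to 3′ on the strand of the gene. Capitals mark a GC box (GGGCGG on either strand), the 1 motif of those searched that was found in them.
Npnt (chr3:132950242-132950541, minus strand): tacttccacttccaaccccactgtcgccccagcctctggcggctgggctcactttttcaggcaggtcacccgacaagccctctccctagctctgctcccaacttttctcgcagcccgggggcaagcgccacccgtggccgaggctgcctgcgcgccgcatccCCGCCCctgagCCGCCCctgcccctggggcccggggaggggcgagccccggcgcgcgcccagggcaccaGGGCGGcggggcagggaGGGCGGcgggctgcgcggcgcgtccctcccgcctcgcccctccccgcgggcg
Itga8 (chr2:12301895-12302194, minus strand): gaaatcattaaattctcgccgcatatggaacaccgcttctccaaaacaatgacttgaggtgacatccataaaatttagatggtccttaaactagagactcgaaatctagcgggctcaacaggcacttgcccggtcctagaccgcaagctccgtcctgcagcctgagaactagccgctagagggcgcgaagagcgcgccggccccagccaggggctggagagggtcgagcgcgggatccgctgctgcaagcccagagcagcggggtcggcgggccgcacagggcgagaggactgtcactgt
Npnt has 4 GC boxes and 76.7% G and C, and Itga8 has 0 GC boxes and 59%. Both strands were also searched for the TATA box as TATAAA, the AP-1 site as TGANTCA, the TEAD site as GGAATG and the forkhead site as TGTTTAC, and none occurs in either window. Of 32851 such windows in all, 35.7% hold a GC box, 13.6% the TATA box, 7.81% the AP-1 site, 14.7% the TEAD site and 3.65% the forkhead site. A match is a match of letters only. Windows were found for 25 of the 40 members.

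Among the collagen-binding integrins the 2 chains known for basement membrane and epithelial contacts were lower and the 2 known from cartilage and fibroblasts were not. Itga1, the alpha1 chain, a receptor for collagen IV, stood at 17.2, 16.9 and 15.1 FPKM in the wild type lungs, and 10.7, 9.71 and 9.59 FPKM in those labelled knockdown. Itga2, the alpha2 chain, a receptor for collagen I found on epithelium and platelets, stood at 10.3, 9.22 and 9.72 FPKM in the wild type lungs, and 4.22, 6.06 and 5.43 FPKM in those labelled knockdown. In both genes every knockdown-labelled library was below every wild type one. Itga1 had a log2 fold change of -0.72 (95% interval -0.93 to -0.52, edgeR adjusted p = 0.0715) and Itga2 of -0.91 (95% interval -1.24 to -0.57, edgeR adjusted p = 0.0938), which are 1.65-fold and 1.87-fold lower. DESeq2 called both (DESeq2 adjusted p = 3.39e-10 and 1.93e-06). Itga10, the alpha10 chain of chondrocytes, was rare and higher in each knockdown-labelled library (0.74, 0.79 and 0.91 against 1.86, 1.1 and 2.18 FPKM). For it the log2 fold change was 1.06 (95% interval 0.44 to 1.68, edgeR adjusted p = 0.152), or 0.56 in limma on log2(FPKM + 1), a scale on which low genes change less. DESeq2 called it (DESeq2 adjusted p = 0.0167). The cartilage markers are a list chosen after these values were seen. They summed to 109, 89.8 and 110.5 CPM for wild type, and 73.8, 71.9 and 125 CPM for the knockdown label. The sum was highest in knockdown-labelled replicate 3, as was Itga10. In knockdown-labelled replicate 1, where Itga10 was second highest, the sum was below every wild type library. Of the 8 cartilage markers tested 2 had a negative log2 fold change, and the median was 0.73. The unadjusted edgeR p was under 0.05 for 2 markers with a raised level and 1 with a reduced level. Matn1 was at 0 in a library. The part of cartilage in the level of Itga10 was not tested. Itga11, the alpha11 chain of fibroblasts, overlapped between groups (0.74, 1.04 and 0.87 against 1.22, 0.95 and 1.09 FPKM).

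The collagen partners differed in direction, though neither passed the test. Col4a1 stood at 471, 444 and 416 against 416, 362 and 335 FPKM with a log2 fold change of -0.27 (95% interval -0.54 to 0.00041, edgeR adjusted p = 0.294). Col1a1 was higher in each knockdown-labelled library (165, 198 and 198 against 255, 201 and 283 FPKM, log2 fold change 0.38 (95% interval 0.055 to 0.71, edgeR adjusted p = 0.243)). Thus the ratio of Itga2 to Col1a1 was 0.0622, 0.0465 and 0.0490 for wild type, and 0.0166, 0.0301 and 0.0192 for the knockdown label, with no overlap. Itga1 per Col4a1 did not overlap either (0.0365, 0.0380 and 0.0362 for wild type, and 0.0257, 0.0268 and 0.0286 for the knockdown label). Itga1 and Itga2 are neighbours on chromosome 13, on the minus strand, Itga2 at 114969617 to 115068636 and Itga1 at 115089632 to 115238500 in the table's coordinates, 20995 bases apart. Their promoter windows are given as the pair of adjacent receptors with like differences, from RefSeq on GRCm38.p6, with GC boxes in capitals.
Itga2 (chr13:114932051-114932350, minus strand): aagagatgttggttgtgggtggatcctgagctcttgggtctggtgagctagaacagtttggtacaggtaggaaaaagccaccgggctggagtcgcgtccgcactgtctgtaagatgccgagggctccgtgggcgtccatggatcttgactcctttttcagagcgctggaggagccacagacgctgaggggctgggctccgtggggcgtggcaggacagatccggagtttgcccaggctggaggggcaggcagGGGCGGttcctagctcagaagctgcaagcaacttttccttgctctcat
Itga1 (chr13:115101915-115102214, minus strand): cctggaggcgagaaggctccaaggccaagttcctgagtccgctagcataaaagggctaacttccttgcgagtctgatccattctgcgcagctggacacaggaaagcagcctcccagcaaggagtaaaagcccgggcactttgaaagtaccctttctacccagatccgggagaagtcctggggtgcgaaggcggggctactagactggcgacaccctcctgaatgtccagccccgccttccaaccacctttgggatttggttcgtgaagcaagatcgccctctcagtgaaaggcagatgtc
Itga2 has 1 GC box and Itga1 has 0, and neither holds any of the other motifs searched.

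**Figure D2:**
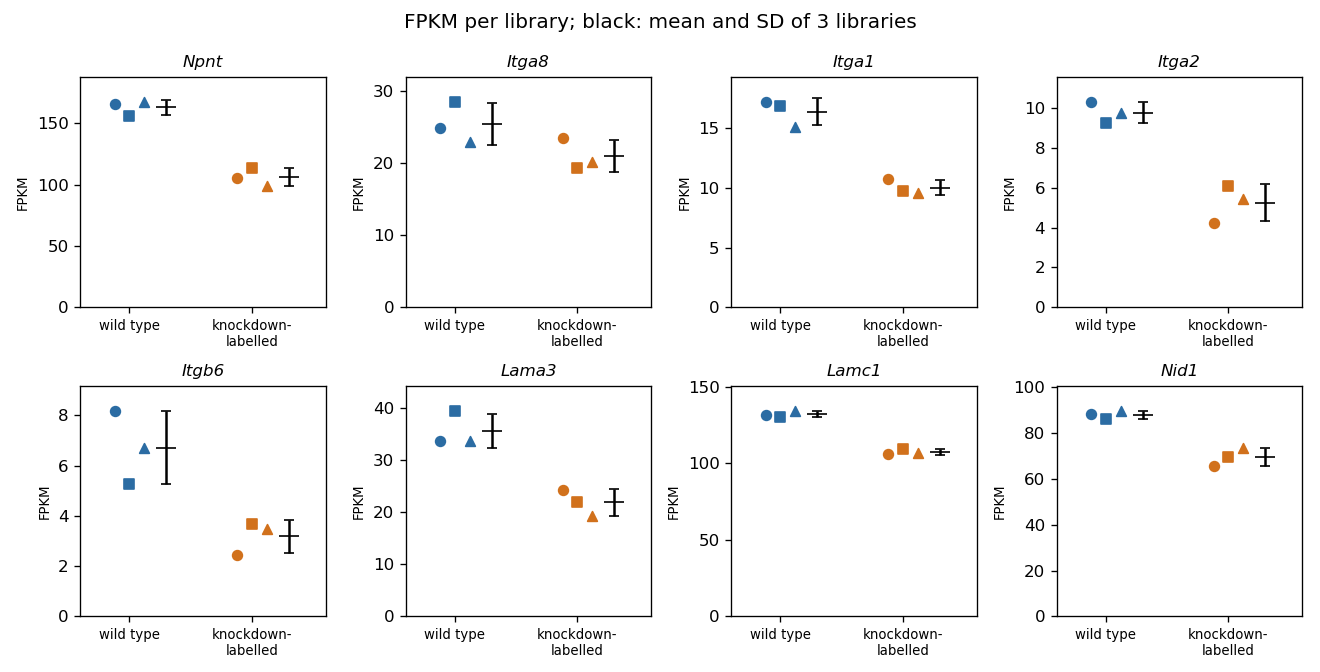
FPKM per library for 8 members on axes that start at 0 (blue wild type, orange knockdown-labelled, shapes for replicates 1 to 3, black bars mean and SD of 3 libraries). The groups are apart in each panel except Itga8, where knockdown-labelled replicate 1 lies above wild type replicate 3.

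Of the laminin-binding alpha chains Itga3 and Itga6 were lower in each knockdown-labelled library, while Itga7 and the beta chain Itgb4 overlapped between groups. Itga3, the alpha3 chain and a main laminin receptor of lung epithelium, stood at 44.8, 34.98 and 38.5 FPKM in the wild type lungs, and 27.97, 29.9 and 25.7 FPKM in those labelled knockdown. The groups were apart, the log2 fold change was -0.51 (95% interval -0.78 to -0.24, edgeR adjusted p = 0.14), and DESeq2 called it (DESeq2 adjusted p = 0.00268). Itga6, which pairs with beta1 or beta4, stood at 29.9, 33.3 and 27.1 against 26.1, 25.2 and 25.7 FPKM, also apart. Its log2 fold change of -0.24 (95% interval -0.46 to -0.026, edgeR adjusted p = 0.259) was -0.079 with heart muscle level as a covariate and -0.16 without wild type replicate 2. Itga7, the laminin receptor of muscle, overlapped between groups (6.79, 7.56 and 6.24 against 9.76, 5.66 and 6.47 FPKM), with its highest value in knockdown-labelled replicate 1. Itgb4, the beta chain of hemidesmosomes, stood at 2.53, 3.11 and 3.72 FPKM in the wild type lungs, and 3.97, 3.43 and 7.47 FPKM in those labelled knockdown, with knockdown-labelled replicate 3 far above the other 5. Its log2 fold change was 0.66 (95% interval -0.042 to 1.35, edgeR adjusted p = 0.315), and without that library 0.24. The markers of stratified and basal epithelium, a list chosen after these values were seen, summed to 60.1, 50.3 and 689 CPM for wild type, and 67.5, 53.6 and 743 CPM for the knockdown label, high in replicate 3 of both groups, and Dsg3 and Krt6a were at 0 in some libraries. Skeletal muscle markers summed to 351, 106 and 2000.4 CPM for wild type, and 1004, 539 and 4705 CPM for the knockdown label. Their part in the level of Itgb4 was not tested.

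On the ligand side, Lama3 and Lamb3 were lower in each knockdown-labelled library, and of laminin-511 this held for Lamc1 only. Lama3 and Lamb3 are chains of laminin-332, which anchors epithelium through the integrins with alpha3 and alpha6. Lama3 stood at 33.7, 39.4 and 33.6 FPKM in the wild type lungs, and 24.3, 21.98 and 19.27 FPKM in those labelled knockdown, with a log2 fold change of -0.71 (95% interval -0.99 to -0.44, edgeR adjusted p = 0.0942) and DESeq2 adjusted p = 1.44e-06. Lamb3 was at 23.1, 24.2 and 21.1 against 19.6, 17.5 and 17.2 FPKM, and for both chains the groups did not overlap. Lamb3 had a log2 fold change of -0.34 (95% interval -0.55 to -0.14, edgeR adjusted p = 0.154), and -0.21 with heart muscle level as a covariate. DESeq2 called it (DESeq2 adjusted p = 0.027). In the table Lamb3 overlaps Hsd11b1 and G0s2 on the other strand, both with counts of the same order, and no strand setting is stated, so its value is less certain. The ratio of Itgb4 to Lama3 was 0.0751, 0.0789 and 0.111 for wild type, and 0.163, 0.156 and 0.388 for the knockdown label.

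Laminin-511, the main laminin of adult basement membranes, is made of Lama5, Lamb1 and Lamc1, and with Lamb2 in place of Lamb1 it is laminin-521. Lamc1, shared by most laminins, stood at 132, 130.02 and 134 FPKM in the wild type lungs, and 106, 109 and 106 FPKM in those labelled knockdown. These groups were tight and apart, and the log2 fold change was -0.31 (95% interval -0.48 to -0.14, edgeR adjusted p = 0.146) with DESeq2 adjusted p = 0.000671. Lama5 overlapped between groups (89.4, 94.7 and 71.8 against 93.5, 59.8 and 60.2 FPKM), and knockdown-labelled replicate 1 was within the wild type range, while replicates 2 and 3 were below it. Its log2 fold change of -0.28 (95% interval -0.75 to 0.20, edgeR adjusted p = 0.537) was 0.088 with heart muscle level as a covariate. Without knockdown-labelled replicate 1, 2 or 3 it was -0.51, -0.18 or -0.16. Lamb1 (45.2, 48.9 and 49.2 against 57.2, 44.3 and 44 FPKM) and Lamb2 (57.5, 62.6 and 56.5 against 62.1, 53.5 and 57.9 FPKM) overlapped, with log2 fold changes of 0.0096 and -0.039, and knockdown-labelled replicate 1 held the highest Lamb1. Lamb1 was the scarcest chain of laminin-511 in every library, and Lamb2 of laminin-521 in 6 of 6. The ratio of Itga3 to Lama5 overlapped between groups (0.501, 0.369 and 0.537 for wild type, and 0.299, 0.501 and 0.427 for the knockdown label).

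Among Lama4, Lama2, Lama1 and Lamc3, only Lama1 was lower in each knockdown-labelled library. Lama4, the chain of vessel walls, overlapped (27.5, 31.03 and 31.6 against 30.8, 26.5 and 23.8 FPKM), as did Lama2, the muscle chain (5.43, 4.93 and 5.87 against 4.99, 6.16 and 6.12 FPKM). Lama1, the chain of early embryonic basement membranes, was rare but lower in each knockdown-labelled library (0.69, 0.73 and 0.61 against 0.36, 0.23 and 0.35 FPKM). With 32 to 109 counts per library its log2 fold change was -1.11 (95% interval -1.64 to -0.59, edgeR adjusted p = 0.123), and DESeq2 called it (DESeq2 adjusted p = 0.0067). On the log2(FPKM + 1) scale of limma without a filter it was -0.35. Lamc3 overlapped between groups (5.19, 4.02 and 5.22 against 3.4, 4.85 and 2.64 FPKM). Its log2 fold change of -0.42 was -0.86 with heart muscle level as a covariate. Without knockdown-labelled replicate 2 or 3 it was -0.70 or -0.22. For Lama4 the log2 fold change of -0.16 was -0.27 with heart muscle level as a covariate. Without knockdown-labelled replicate 1 or 3 that of Lama4 was -0.25 or -0.069.

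Nidogens bind the laminin gamma1 chain, and Nid1 was lower in each knockdown-labelled library, as Lamc1 was, while Nid2 overlapped. Nid1 stood at 88.2, 86.1 and 89.7 FPKM in the wild type lungs, and 65.4, 69.4 and 73.5 FPKM in those labelled knockdown, with no overlap. Nid1 had a log2 fold change of -0.35 (95% interval -0.53 to -0.18, edgeR adjusted p = 0.13), and DESeq2 called it (DESeq2 adjusted p = 0.000884). The ratio of Lamc1 to Nid1 was 1.49, 1.51 and 1.496 for wild type, and 1.62, 1.58 and 1.45 for the knockdown label, with overlap. Nid2 was at 30.8, 27.3 and 32.4 against 21.6, 29.6 and 30.2 FPKM, lowest in knockdown-labelled replicate 1 and within the wild type range in the other 2. The table also places Rtraf over Nid2 on the other strand, with a mean count of 67.8% of that of Nid2. Nid2 had a log2 fold change of -0.16 (95% interval -0.49 to 0.17, edgeR adjusted p = 0.603). This value was -0.010 without knockdown-labelled replicate 1, -0.25 without replicate 2 of that group and -0.31 with heart muscle level as a covariate.

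Among the integrins that bind the RGD motif and activate TGF-beta, Itgb6 had the largest difference of the beta chains. Itgb6, the epithelial beta6 chain, releases active TGF-beta together with alphaV. It stood at 8.18, 5.27 and 6.69 FPKM in the wild type lungs, and 2.45, 3.66 and 3.46 FPKM in those labelled knockdown. The groups did not overlap, though the wild type libraries spread widely. The log2 fold change was -1.08 (95% interval -1.57 to -0.60, edgeR adjusted p = 0.116), 2.12-fold lower, and DESeq2 called it (DESeq2 adjusted p = 5.06e-05). Tgfb1 overlapped (14.2, 14.7 and 11.9 against 10.53, 12.98 and 13.1 FPKM), and the ratio of Itgb6 to Tgfb1 was 0.577, 0.359 and 0.561 for wild type, and 0.233, 0.282 and 0.265 for the knockdown label. Itgav, the alphaV chain, was lower in each knockdown-labelled library (13.7, 14.9 and 13.7 against 12.4, 10.4 and 11.6 FPKM), with a log2 fold change of -0.31 (95% interval -0.50 to -0.12, edgeR adjusted p = 0.164) and -0.20 with heart muscle level as a covariate. DESeq2 called it (DESeq2 adjusted p = 0.0372). Of the other beta chains that join alphaV, Itgb5, Itgb3 and Itgb8 overlapped between groups, while Itgb1 was lower in each knockdown-labelled library. Itgb5, which binds vitronectin, was at 22.2, 23.8 and 23.9 against 25.8, 22.8 and 26.4 FPKM, and Itgb3, shared with platelets, at 4.46, 4.82 and 4.4 against 3.98, 4.04 and 4.75 FPKM. Itgb8, another activator of TGF-beta, was rare (0.44, 0.44 and 0.62 against 0.53, 0.43 and 1.22 FPKM). Knockdown-labelled replicate 3 held its highest value, and without that library its log2 fold change went from 0.52 to -0.065.

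The fibronectin receptor and its ligand differed in their separation. Itga5, the alpha5 chain, overlapped (19.6, 19.03 and 20.4 against 18.3, 20.1 and 18.2 FPKM), with a log2 fold change of -0.068 (95% interval -0.25 to 0.11, edgeR adjusted p = 0.695). With heart muscle level as a covariate it was -0.19, with embryo sex -0.040, and without knockdown-labelled replicate 1, 2 or 3 -0.032, -0.13 or -0.032. Fn1, which encodes fibronectin, was lower in each knockdown-labelled library (445, 504 and 419 against 293, 368 and 346 FPKM, log2 fold change -0.45 (95% interval -0.77 to -0.14, edgeR adjusted p = 0.189)). The ratio of Itga5 to Fn1 was accordingly 0.0440, 0.0378 and 0.0488 for wild type, and 0.0626, 0.0548 and 0.0526 for the knockdown label, without overlap.

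A like pattern held for alpha9 beta1, a receptor of lymphatic and smooth muscle cells. Itga9 overlapped (31.8, 32.1 and 25.3 against 22.98, 28.6 and 28.4 FPKM), with a log2 fold change of -0.17 that was 0.036 with heart muscle level as a covariate. Without wild type replicate 2 or 3 it was -0.11 or -0.28, and without knockdown-labelled replicate 1 -0.060. Of its ligands, Svep1, a large matrix protein of vessel formation, stood at 13.97, 12.8 and 12.5 FPKM in the wild type lungs, and 7.68, 8.27 and 7.43 FPKM in those labelled knockdown with no overlap, a log2 fold change of -0.76 (95% interval -0.96 to -0.56, edgeR adjusted p = 0.0671) and DESeq2 adjusted p = 7.34e-11. Tnc, which encodes tenascin C, was at 26.6, 26.6 and 26.9 against 22.01, 21.5 and 23.9 FPKM, also without overlap (log2 fold change -0.26 (95% interval -0.41 to -0.11, edgeR adjusted p = 0.148)). Itga9 per Svep1 was 2.27, 2.50 and 2.02 for wild type, and 2.99, 3.45 and 3.82 for the knockdown label. Itga4, the alpha4 chain, and Vcam1, its ligand on cells, both overlapped (3.35, 2.96 and 3.29 against 2.86, 3.13 and 2.99 FPKM and 10.8, 9.22 and 9.46 against 7.69, 11.1 and 9.12 FPKM). Ratios were taken for 25 pairs of receptor and ligand or of partners, and most overlapped between groups. Among these were Itga6 to Lama5, Itga6 to Lama4, Itga7 to Lama2, Lamc1 to Nid2, Itga9 to Tnc and Itga4 to Vcam1. Itga6 to Lama1 and Itgal to Icam1 did not overlap.

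Blood cell integrins were low, and 1 of those tested was higher in each knockdown-labelled library. Itgb2, the beta chain of leukocytes, stood at 6.11, 5.01 and 5.48 FPKM in the wild type lungs, and 7.88, 8.04 and 6.38 FPKM in those labelled knockdown, with a log2 fold change of 0.41 (95% interval 0.098 to 0.73, edgeR adjusted p = 0.212). Of 9 tested leukocyte markers 3 were higher at an unadjusted p under 0.05 and 0 lower, and the 10 summed to 687 to 824 CPM for wild type, 775 to 873 CPM for the knockdown label. Itgal, the alphaL chain of lymphocytes, overlapped (2.41, 2.24 and 3.47 against 3.68, 5.45 and 2.5 FPKM) and was highest in knockdown-labelled replicate 2. A log2 fold change of 0.51 was 0.17 without that library and -0.33 with heart muscle level as a covariate. Its ligand gene Icam1 stood at 34.2, 32.6 and 29.6 against 24.6, 20.6 and 16.2 FPKM with no overlap (log2 fold change -0.66 (95% interval -1.02 to -0.30, edgeR adjusted p = 0.146), DESeq2 adjusted p = 0.00176). Itgam and Itgax, chains of macrophages and dendritic cells, overlapped at 0.62, 0.64 and 0.56 against 0.7, 0.68 and 0.63 FPKM and 0.6, 0.51 and 0.36 against 0.61, 0.67 and 0.54 FPKM. Itgae and Itgb7, the pair of lymphocytes within epithelium, overlapped too (0.23, 0.38 and 0.56 against 0.39, 0.38 and 0.24 FPKM and 0.9, 0.58 and 0.77 against 0.81, 0.8 and 0.73 FPKM), and Itgae shares its place with Haspin on the other strand. Itga2b, the alphaIIb chain of platelets, overlapped at 2.32, 2.54 and 2.48 against 2.23, 2.32 and 2.08 FPKM, and platelet and megakaryocyte markers summed to 105 to 127 CPM for wild type, 96.8 to 133 CPM for the knockdown label. Itgad counts were 1, 1 and 2 for wild type, and 4, 5 and 3 for the knockdown label, too few for a test, and Cox6a2 on the other strand overlaps it.

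**Figure D3:**
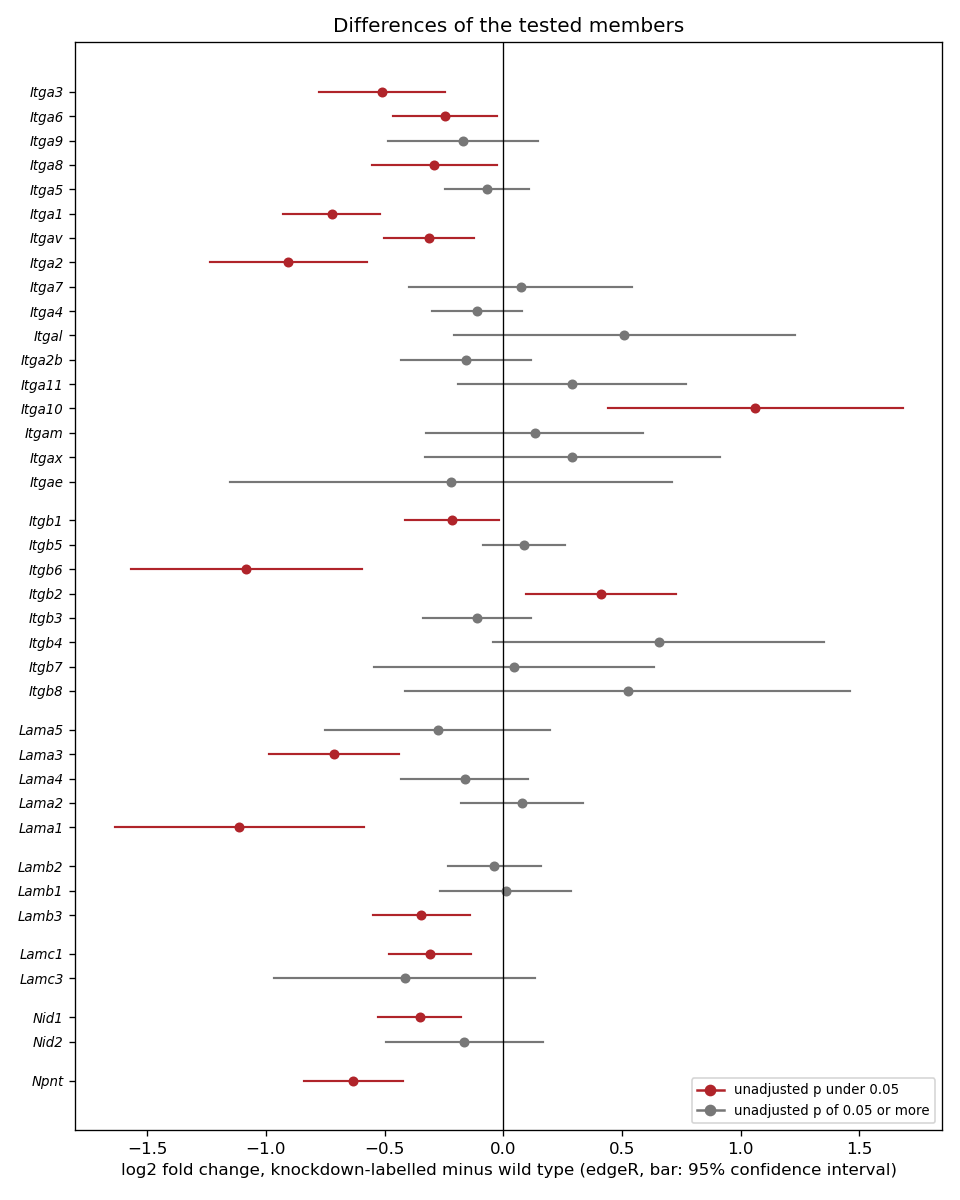
Log2 fold change of 38 tested members, knockdown-labelled minus wild type, with 95% confidence intervals from edgeR (red for an unadjusted p under 0.05, grey otherwise). Of the 16 red genes 14 lie to the left of 0, while Itga10 and Itgb2 lie to the right, and the widest intervals belong to rare chains such as Itgae and Itgb8.

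Taking the chains that join beta1 as a set, their summed level was lower along with that of Itgb1. The 12 alpha chains summed to 204, 201 and 184 FPKM in wild type and 162, 160.2 and 157 FPKM in the knockdown-labelled libraries, without overlap. Itgb1 was at 223, 228 and 228 against 203, 203 and 182 FPKM, also without overlap, with a log2 fold change of -0.22 (95% interval -0.41 to -0.019, edgeR adjusted p = 0.265). The ratio of the sum to Itgb1 overlapped, at 0.914, 0.882 and 0.808 and 0.796, 0.788 and 0.863. Within the sum, Itga1 took 8.33% ± 0.126 against 6.26% ± 0.311 (SD, n = 3 each) and Itga2 took 4.97% ± 0.357 against 3.28% ± 0.605 (SD, n = 3 each). The share of Itga5 was 10.1% ± 0.914 against 11.8% ± 0.657 (SD, n = 3 each), above wild type in each knockdown-labelled library. This also held for the rare chains Itga10, at 0.417% ± 0.0688 against 1.07% ± 0.355, and Itga11, at 0.451% ± 0.0790 against 0.680% ± 0.0814 (SD, n = 3 each). Itga3 held the largest mean share in both groups, 20.1% ± 2.41 against 17.4% ± 1.18 (SD, n = 3 each), and overlapped, and so did that of Itga8 at 12.9% ± 1.06 against 13.1% ± 1.23 (SD, n = 3 each). Shares of 1 sum depend on each other, so a lower share of some chains raises those of the rest.

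**Figure D4:**
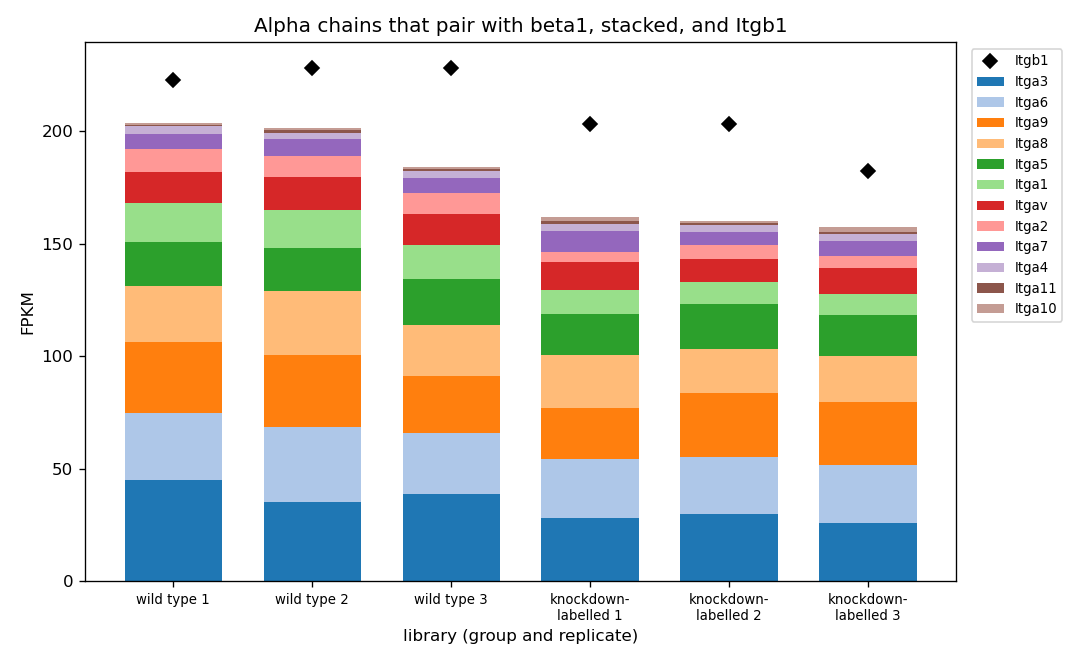
Summed FPKM of the 12 alpha chains that can pair with beta1, stacked by gene for each of the 6 libraries, with the level of Itgb1 as black diamonds. The 3 knockdown-labelled stacks (157 to 162 FPKM) are shorter than the 3 wild type ones (184 to 204 FPKM), and the diamonds are lower too.

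Other genes of cell-matrix adhesion were read from 5 lists, in which 0 genes passed edgeR's adjusted threshold and which are set here beside 8.52% lower and 8.48% higher at an unadjusted p under 0.05 over all genes. In the core of focal adhesions, the complexes that integrins build inside the cell, 10 of 30 were lower and 2 higher at an unadjusted p under 0.05 (median log2 fold change -0.13). DESeq2 called 5 lower and 1 higher there, where it called 2.5% lower and 2.05% higher of all its genes. Vcl, which encodes vinculin, a link to actin, stood at 22.4, 20.8 and 22.4 against 14.5, 16.5 and 14.1 FPKM (edgeR adjusted p = 0.0942), and the tensin gene Tns3 at 48.9, 45.1 and 46.9 against 32.8, 36.6 and 33.1 FPKM. Lims1, which encodes the adaptor PINCH1, was at 63.5, 62.9 and 58.3 against 49.7, 48.9 and 44.8 FPKM. Kank1, a partner of talin, was the other way, at 5.4, 6.86 and 7.07 against 10.2, 9.13 and 11.7 FPKM (edgeR adjusted p = 0.119). For these 4 genes the groups did not overlap. The genes named from each of the 5 lists are the 4 with the smallest edgeR p. Separated groups are favoured by that choice and are no further result. Over all genes tested, 12.4% were lower and 10.8% higher in each knockdown-labelled library, in CPM.

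Among other basement membrane genes 6 of 28 were lower and 5 higher at an unadjusted p under 0.05 (median log2 fold change -0.072), and DESeq2 called 6 lower and 1 higher. The chains Col4a3 and Col4a4, partners in the collagen IV network of alveoli and glomeruli, stood at 29.5, 28.8 and 28.7 against 15.4, 16.7 and 13.4 FPKM and 35.5, 36.1 and 35.1 against 22.5, 22.8 and 17.98 FPKM (edgeR adjusted p = 0.0625 and 0.0804). Frem1, a protein of the Fraser complex of basement membranes, was at 23.6, 23.2 and 21.8 against 9.57, 14.5 and 12.8 FPKM, and Pxdn, the peroxidase that cross-links collagen IV, at 57.5, 50.96 and 52.3 against 40.4, 40.5 and 40.2 FPKM. All 4, picked by the smallest edgeR p of their list, were lower in each knockdown-labelled library. Of laminin receptors other than integrins 3 of 18 were lower and 2 higher at an unadjusted p under 0.05 (median log2 fold change -0.028), and DESeq2 called 2 lower and 0 higher. Bcam, which binds laminin alpha5, was at 192, 198 and 175 against 158, 153 and 154 FPKM and Utrn, the utrophin gene, at 14.1, 12.9 and 13.3 against 11.6, 10.9 and 10.2 FPKM, while the sarcoglycan gene Sgcb was higher in each (10.1, 11.3 and 11.3 against 12.6, 13.3 and 14.7 FPKM) and the syndecan gene Sdc2 overlapped.

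Of soluble and matrix ligands of integrins 7 of 24 were lower and 1 higher at an unadjusted p under 0.05 (median log2 fold change -0.043), and DESeq2 called 7 lower and 0 higher. Beside Svep1 they included Edil3 (2.54, 2.58 and 2.73 against 1.36, 1.8 and 1.64 FPKM), Tgfbi (58.4, 54.7 and 55.9 against 44.4, 34.5 and 32.1 FPKM), both matrix proteins that bind integrins, and the lymphatic growth factor gene Vegfc (6.56, 6.39 and 6.75 against 4.26, 4.77 and 4.94 FPKM), each lower in all 3 knockdown-labelled libraries. Of the counter-receptors of leukocyte integrins 3 of 9 were lower and 0 higher at an unadjusted p under 0.05 (median log2 fold change -0.089), and DESeq2 called 2 lower and 0 higher. Icam2, an endothelial ligand of alphaL beta2, was at 50.3, 46.8 and 43.8 against 31.4, 35.6 and 27.5 FPKM (edgeR adjusted p = 0.125) and Jam2 at 8.75, 8.79 and 8.74 against 6.35, 8.17 and 7.58 FPKM, both without overlap, and F11r overlapped (62.2, 56.8 and 60.2 against 59.7, 55.4 and 54.7 FPKM).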

How the data were processed

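Poly(A) RNA-seq of 6 whole lungs was analysed, 3 per genotype label. The authors deposited a table of raw counts with, per the file headers, FPKM values and exonic lengths; FPKM recomputed from the counts differed by at most 0.005. HISAT2 2.0.1, HTSeq 0.6.1 and cutadapt 1.9.1 appear in the submitters' processing notes, with no settings. Which build and strand option were used was not stated in these sources. Counts were tested in edgeR 4.0.16 (R 4.3.3) with filterByExpr, TMM factors and the quasi-likelihood test, group as the only term, and Benjamini-Hochberg adjustment over 17728 genes. Intervals are 95% confidence intervals. Standard errors were taken from the log2 fold change and the F statistic. Members were found by symbol, and the lists, pairs and members were chosen with earlier results of these data known. All members but 1, which is not reported here, are named, with up to 4 genes of smallest p per pathway list. Libraries of a group differed by more than counting noise (chi-square per degree of freedom of 13.2 to 44.4), so none was counted as a repeated run of another. This cannot tell separate lungs from separate preparations of the same lung. Alternatives were DESeq2 1.42.0, limma 3.58.1 on log2(FPKM + 1) or log2(FPKM + 0.1), other scaling factors, no filter, embryo sex or heart muscle level as a covariate, and leaving out each library. Embryo sex was inferred from the counts, as female where Xist exceeded Ddx3y, and not read from a label. In counts simulated from these libraries edgeR recovered 46% of 100 genes changed by 1 and 78% of 100 changed by 2 on the log2 scale, with 9 false calls among 17477 genes. DESeq2 recovered 51% and 84%, with 41 false calls among 17721 genes. In this simulation a larger part of its calls was thus false than with edgeR. The simulation used edgeR's own dispersion estimates and few changed genes, so these shares need not hold for the real counts. Genes called by DESeq2 alone are read as less certain. Changes under 1, as most members had, were not simulated. An exact permutation test of 3 against 3 cannot go below 0.1 and was not used.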

Additional observations from a re-analysis of the deposited data

How the results depend on the processing

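The count of genes called over all tested was 6, and 81 without a count filter, 813 by DESeq2, 3 by limma on log2(FPKM + 0.1), 0 with embryo sex and 1 with heart muscle level as a covariate, and from 0 to 17 with a library left out (17 without wild type replicate 3, 1 without knockdown-labelled replicate 3 and 0 without any 1 of the other 4). The count of members called was 0, but 5 without a count filter (Itga1, Itga2, Itgb6, Lama3 and Npnt) and 12 by DESeq2, and 0 in the other 13 alternatives. The cause was not tested. With heart muscle level as a covariate the log2 fold change took the other sign for Itga9 (0.036), Itgal (-0.33), Lama5 (0.088), Lama2 (-0.079), Lamb2 (0.076) and Cdh1 (0.18), and with embryo sex for Itga7 (-0.020), Itgae (0.057) and Itgb7 (-0.0021). With a library left out the sign also changed for some genes, and values ranged from -0.18 to 0.21 for Itga7, -0.49 to 0.13 for Itgae, -0.11 to 0.21 for Itgb7, -0.065 to 0.78 for Itgb8, -0.078 to 0.013 for Lamb2, -0.11 to 0.083 for Lamb1, -0.13 to 0.12 for Cdh1, -1.15 to 1.45 for Col2a1, -0.25 to 0.047 for Vcam1, -0.39 to 0.65 for Vtn and -0.13 to 0.0069 for Prmt5. No paired analysis was possible because the labels name no pairs across the 2 groups. Replicates are numbered within each group, so an equal number does not mark a pair. With 3 libraries a group, differences of rare chains are least certain.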
